A study of Homo sapiens with 6 samples.

Results

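The Notch pathway was followed by mRNA sequencing in MCF12A, a human breast epithelial line grown without limit in culture, that stably over-expressed miR-424 or held an empty vector (EV). Both groups are derivatives of the same line, differ by the labels only in that construct, and were harvested after 48 hours of growth, with 3 samples grown in parallel per group. The sources used here do not say whether each line was a clone or a pool, and the p-values below reflect no more than the spread among these cultures, some or all of it possibly technical. The labels call the cells a breast cancer line, whereas MCF12A is otherwise known as non-tumorigenic. The 10 genes described were chosen by name, as ligands (JAG1, JAG2, DLL1, DLL3), receptors (NOTCH1, NOTCH2, NOTCH3), the DNA-binding partner of the cleaved receptor (RBPJ) and target genes (HES1, HEY1). Each was found as 1 row of the deposited table of 24294 loci, and no row was shared with another gene symbol.

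Notch signalling acts between touching cells. A ligand on one cell binds a receptor on its neighbour, the receptor is cut by an ADAM protease and then by gamma-secretase, and the freed intracellular part moves to the nucleus, where it joins RBPJ and turns on genes such as those of the HES and HEY repressor families. In the mammary gland the pathway is known for its part in the choice between luminal and basal cell fates. MicroRNAs such as miR-424 pair with messages mainly through their seed, bases 2 to 8, and lower the messages that carry the complementary letters in their 3′ untranslated region (UTR).

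The sequences that link the construct and the pathway are shown first. The mature microRNA (RefSeq, GRCh38.p14, chromosome X) is printed with its seed in capitals, followed by the matches to bases 2 to 8 in the 3′ UTRs of the Notch genes, with the match in capitals. They are printed because these are the stretches that could pair with the whole seed in the longest 3′ UTR of each of the 10 genes. Other parts of the transcripts were not searched.
hsa-miR-424-5p: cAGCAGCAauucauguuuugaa
DLL1, first match: ccccaacgaaTGCTGCTgaagaggaggg
DLL1, second match: cctcgtggacTGCTGCTgagaaaccgag
NOTCH2, first match: cttttgtaaaTGCTGCTgaggaacaaat
NOTCH2, second match: ctgattatctTGCTGCTtaaaggcctgc
RBPJ, first match: atgttcctagTGCTGCTttgctttaacg
RBPJ, second match: tatctaaattTGCTGCTcactttcttta

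Of the 10 genes, 3 carried the seed match TGCTGCT in the longest 3′ UTR that GENCODE 29 gives for their transcripts, each at 2 places. Among all tested loci with such a UTR the share with at least 1 match was 24.0% (2564 of 10672). DLL1 and HEY1 are not among these tested loci. The median length of such a UTR in tested loci was 1256 bases, shorter than those of NOTCH2 and RBPJ. The matches in DLL1 began at bases 74 and 105 of a UTR of 668 bases, those in NOTCH2 at bases 44 and 1275 of 3753, and those in RBPJ at bases 2331 and 3137 of 4121. In none of these 6 was the match followed by the A that completes an 8-base site. A match is a stretch of letters, not a shown site of action. JAG1, JAG2, DLL3, NOTCH1, NOTCH3, HES1 and HEY1 held no such match in this window.

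The promoter of HES1, the textbook target of the pathway, is printed for the letters that RBPJ is known to bind. It runs from 250 bases before to 50 bases after the start of the gene (RefSeq, chr3:194135898-194136197, GRCh38.p14, plus strand), with TGGGAA in capitals.
HES1 promoter: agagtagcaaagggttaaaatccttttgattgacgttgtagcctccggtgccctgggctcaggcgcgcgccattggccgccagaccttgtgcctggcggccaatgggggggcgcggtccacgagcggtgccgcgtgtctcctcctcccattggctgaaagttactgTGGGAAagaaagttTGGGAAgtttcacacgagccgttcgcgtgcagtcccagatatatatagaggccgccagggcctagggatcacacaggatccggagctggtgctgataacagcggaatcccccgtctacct
A search of both strands for TGGGAA found 2 copies, starting 84 and 70 bases before the gene start, at positions -84 and -70. Promoter windows, 11 in all, were found for 7 of the 10 genes. Of these genes 2 held TGGGAA, HES1 in its only window and RBPJ in 1 of several windows. Among all 35116 promoter windows 24.0% held it, a share of windows and not of genes. The window of HES1 also held 4 copies of CACNAG, a motif bound by HES1 itself, none of which overlapped TGGGAA, and 38.0% of all windows held that motif.

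The values are FPKM, fragment numbers scaled to transcript length and to library size, so that levels can be compared between genes per length. FPKM summed to between 409776 and 424564 per library, and the number of reads behind them is unknown. The merged locus of the microRNA and its host transcript, MGC16121/MIR424, was at 107, 106 and 224 FPKM in the miR-424 libraries. It was at 0.989, 1.27 and 1.23 FPKM in the EV libraries. Reads from the construct and from the cell's own gene were not told apart in it, and the mature microRNA was not measured here. Replicate 3 of miR-424 stood apart. Its median absolute log2 difference was 0.142 from replicate 1 and 0.152 from replicate 2, against 0.0408 between those 2. The libraries also differed by transcript GC content. For loci of 60% GC and over, miR-424 replicates 1, 2 and 3 had median log2 deviations of -0.09, -0.12 and -0.05 from the EV average, and for loci under 40% GC 0.07, 0.09 and -0.22. Of 8 basal mammary markers 7 reached a mean of 1 FPKM (not TP63, and TRIM29 only through the EV libraries). The sum of the 8 was 133 to 135 FPKM in miR-424 and 151 to 157 FPKM in EV libraries. Within this list KRT5 was at 43.9 FPKM or less in miR-424 and at 61.1 FPKM or more in EV libraries. ITGB4 was also lower, at 11.05 FPKM or less in miR-424 and 14.5 FPKM or more in EV libraries. So was TRIM29, at 0.671 FPKM or less and 1.41 FPKM or more. KRT14 was higher in miR-424 libraries (3.55 to 5.14 against 1.99 to 2.46 FPKM), as was EGFR (30.8 to 33.8 against 29.4 to 30.3 FPKM). KRT17, ITGA6 and TP63 overlapped between the groups. Of 8 luminal markers 4 reached a mean of 1 FPKM (sums of 243 to 264 and 253 to 263 FPKM). KRT19, CDH1 (E-cadherin), ESR1 and ELF3 lay under 1 FPKM in both groups. Fibroblast markers were led by DCN and COL1A1 (2 of 6 markers; sums of 164 to 186 FPKM in miR-424 and 156 to 166 FPKM in EV libraries), while PDGFRA, PDGFRB, COL3A1 and LUM lay under 1 FPKM. Of 6 leukocyte markers CD68 and LYZ passed 1 FPKM (sums of 54.0 to 60.1 and 55.9 to 58.9 FPKM), while PTPRC, which all leukocytes carry, lay under 1 FPKM in both groups. All 6 endothelial markers lay under 1 FPKM (sums of 0.252 to 0.307 and 0.318 to 0.343 FPKM). The part of these markers in the results below was not tested. In bulk RNA, fewer cells that express a gene and less RNA per cell cannot be told apart.

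The pathway was expressed mainly through the receptors and RBPJ, with less ligand and little HEY1. In EV cells the order of mean levels was NOTCH1 (31.3 FPKM), RBPJ (20.7), NOTCH2 (20.6), NOTCH3 (11.7), JAG1 (9.60), JAG2 (8.88), HES1 (7.23), DLL3 (1.65), HEY1 (0.928) and DLL1 (0.737). Only RBPJ and NOTCH2 overlapped among neighbours in this order. In miR-424 cells NOTCH1 remained first in the mean (26.0 FPKM), followed by RBPJ (22.8), NOTCH2 (20.0), NOTCH3 (10.8), JAG2 (7.94), JAG1 (7.49), HES1 (5.63), DLL3 (1.27), HEY1 (0.876) and DLL1 (0.380). There, the libraries of NOTCH1 and RBPJ overlapped, as did those of RBPJ and NOTCH2 and those of JAG2 and JAG1. DLL1 and HEY1 were under the mean of 1 FPKM that a locus needed to be tested, so 8 of the 10 genes were tested.

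**Figure D1:**
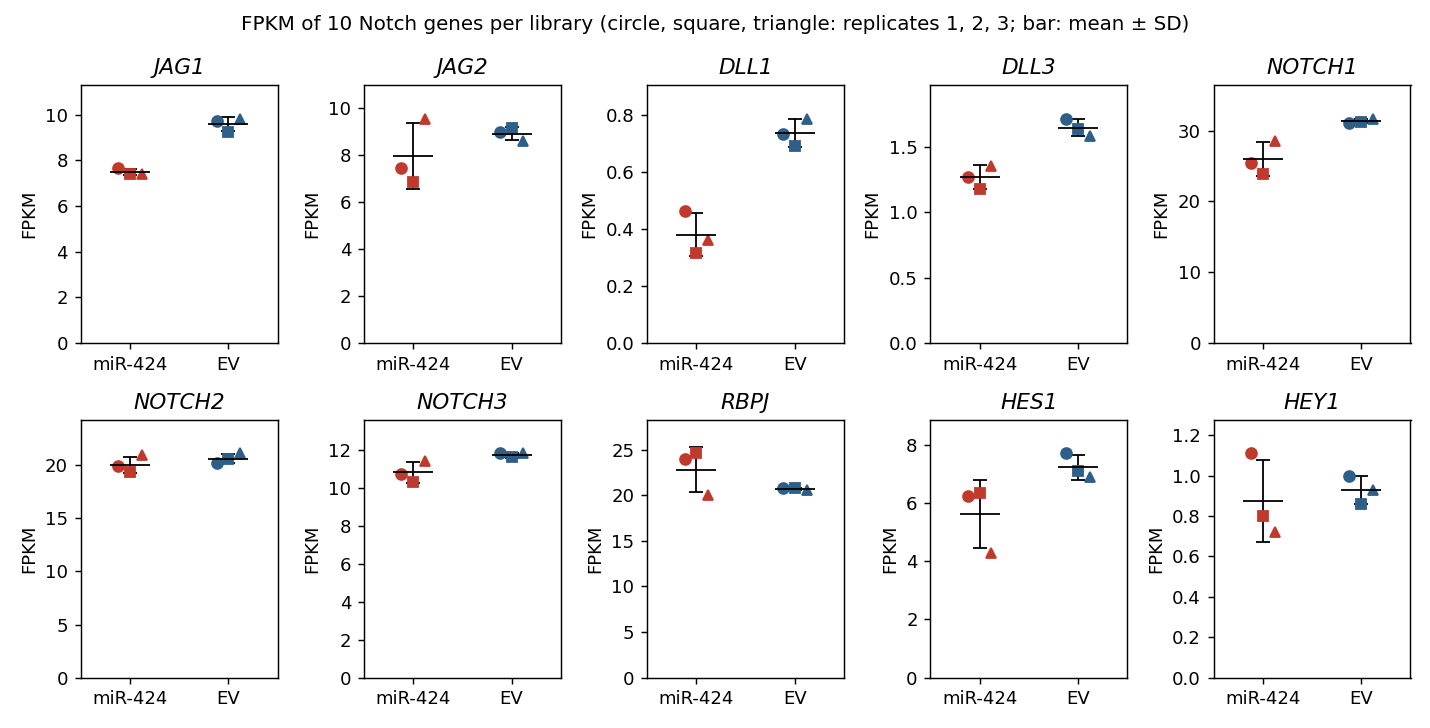
FPKM of each Notch gene in each library, one panel per gene, with miR-424 left of EV. Circles, squares and triangles are replicates 1, 2 and 3, and the bar is the mean ± SD (n = 3 per group). The miR-424 libraries lie under all EV libraries for JAG1, DLL1, DLL3, NOTCH1, NOTCH3 and HES1, and miR-424 replicate 3 sits apart from the other two for JAG2, RBPJ and HES1.

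Of the 10 genes, those past the test were both ligands, and both fell. Groups were compared with limma on log2(FPKM + 1), with Benjamini-Hochberg (BH) adjustment over all 11574 tested loci and a threshold of 0.05. By this test 2 of the 8 tested genes, JAG1 and DLL3, were lower in miR-424 cells, whereas 6.32% of all tested loci were lower and 7.56% were called in either direction. None of the 8 was called higher, against 1.24% of all tested loci. At an unadjusted p under 0.05, 4 of the 8 were lower and 0 higher, against 19.3% and 4.29% of all tested loci. The median log2 change was -0.19 over the 8 genes and -0.05 over all tested loci. With the GC trend removed from each library, these medians were -0.14 and -0.05. The groups did not overlap, with miR-424 lower, for 5 of the 8 (JAG1, DLL3, NOTCH1, NOTCH3 and HES1), against 26.9% of all tested loci, and with miR-424 higher for 0 of the 8, against 6.59%.

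JAG1, a ligand of the Jagged family (chromosome 20, 10618331 to 10654694, hg19), had 7.65, 7.40 and 7.41 FPKM in the miR-424 libraries, against 9.71, 9.26 and 9.83 FPKM in the EV libraries. The 3 miR-424 values lay close together and all under the lowest EV value. The mean was 7.49 ± 0.14 FPKM in miR-424 cells and 9.60 ± 0.30 FPKM in EV cells (SD, n = 3 each), a ratio of 0.780 and a log2 change of -0.32 ± 0.04 (SE; limma BH-adjusted p = 0.00923). The transcripts of JAG1 have 49.6% GC, near the median of tested loci (48.9%), and with the GC trend removed from each library the log2 change was the same to 2 decimals (-0.32; limma BH-adjusted p = 0.00517). The fall was called in 13 of 16 alternative settings and ended without EV replicate 1, 2 or 3 (limma BH-adjusted p = 0.0665, 0.0559 and 0.0716), with log2 changes of -0.31, -0.34 and -0.31.

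JAG2, the other Jagged ligand (chromosome 14, 105607317 to 105635161), had 7.44, 6.84 and 9.53 FPKM in the miR-424 libraries, against 8.95, 9.12 and 8.58 FPKM in the EV libraries. Replicates 1 and 2 of miR-424 were under all EV values and replicate 3 was above them, so the groups overlapped. The log2 change of -0.16 ± 0.11 (SE) did not pass (limma BH-adjusted p = 0.443). Without miR-424 replicate 3 it was -0.28 and passed (limma BH-adjusted p = 0.00318), and with the GC trend removed as well it was -0.18 (0.0155). JAG2 transcripts have 64.2% GC.

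DLL3 (chromosome 19, 39989556 to 39999121), a Delta-like protein known mostly as an inhibitor of signalling inside the cell that makes it, had 1.27, 1.18 and 1.36 FPKM in the miR-424 libraries, against 1.72, 1.64 and 1.59 FPKM in the EV libraries. All 3 miR-424 values were under the EV values. The log2 change was -0.22 ± 0.05 (SE; limma BH-adjusted p = 0.0442), on a scale that understates the change of so low a gene, whose ratio of means was 0.770. The call was kept in 3 of 15 alternative settings. It ended without any 1 of EV replicates 1, 2 and 3 and miR-424 replicates 1 and 2 (limma BH-adjusted p = 0.182, 0.173, 0.141, 0.123 and 0.116). It also ended with the GC trend removed (log2 change -0.17, limma BH-adjusted p = 0.0713) and with median-of-ratios scaling (-0.19, 0.105). At 66.1% GC it had the highest GC content of the 10 genes.

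DLL1, a Delta ligand that activates Notch receptors on neighbouring cells (chromosome 6, 170591293 to 170599697), had the lowest ratio of the 10 genes, 0.516. It had 0.463, 0.316 and 0.361 FPKM in the miR-424 libraries, against 0.733, 0.690 and 0.788 FPKM in the EV libraries. The highest miR-424 value was well under the lowest EV value, at a level where the number of fragments behind each value is unknown. Without the filter on low values, where 3.87% of 19342 loci were lower and 0.786% higher, the log2 change of DLL1 was -0.33 ± 0.05 (SE; limma BH-adjusted p = 0.0208). An exact permutation test gave p = 0.1 (two-sided), the smallest that 3 against 3 samples can reach. Both seed matches of DLL1, printed above, lie near the start of its 3′ UTR.

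Summed over the 4 ligands, FPKM came to 16.8, 15.7 and 18.7 in the miR-424 libraries, against 21.1, 20.7 and 20.8 in the EV libraries. Each miR-424 library was under each EV library (17.1 ± 1.48 and 20.9 ± 0.21 FPKM, SD, n = 3 each; exact permutation test, two-sided, p = 0.1, the smallest possible). JAG1 and JAG2 made up most of the sum in both groups. JAG1 gave 45.5%, 47.0% and 39.7% of it in the miR-424 libraries, against 46.0%, 44.7% and 47.3% in the EV libraries, and DLL1 2.75%, 2.01% and 1.93%, against 3.47%, 3.33% and 3.79%. The share of JAG1 overlapped between the groups (exact permutation test, two-sided, p = 0.6), and that of DLL1 did not (p = 0.1, exact permutation test).

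Among the receptors NOTCH1 had the most negative change, which missed the threshold on the values as deposited. NOTCH1 (chromosome 9, 139388895 to 139440238) had 25.4, 23.9 and 28.6 FPKM in the miR-424 libraries, against 31.1, 31.2 and 31.7 FPKM in the EV libraries. The EV libraries were nearly equal, and the miR-424 libraries were lower and more spread. The log2 change was -0.26 ± 0.07 (SE; limma BH-adjusted p = 0.0591). It passed with the GC trend removed (-0.22; limma BH-adjusted p = 0.0126), without miR-424 replicate 3 (-0.33; 0.000433) and with both (-0.24; 0.0011), where 7.98%, 22.2% and 18.1% of all tested loci were called lower. NOTCH1 transcripts have 62.9% GC. The microRNA gene MIR4673 shares the locus position and was listed at 0 in all libraries except miR-424 replicate 2, at 2.57 FPKM.

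NOTCH2 (chromosome 1, 120454175 to 120612317) had 19.9, 19.3 and 20.9 FPKM in the miR-424 libraries, against 20.2, 20.6 and 21.1 FPKM in the EV libraries. The groups overlapped, with a log2 change of -0.04 ± 0.04 (SE; limma BH-adjusted p = 0.634), whose sign turned with median-of-ratios scaling (0.01). Its value is uncertain because NOTCH2NL, a partial copy of NOTCH2, is listed beside it at 7.85, 7.73 and 8.60 FPKM in the miR-424 and 6.97, 7.80 and 7.97 FPKM in the EV libraries, and reads may be split between the pair. NOTCH3 (chromosome 19, 15270443 to 15311792) had 10.7, 10.3 and 11.4 FPKM in the miR-424 libraries, against 11.8, 11.6 and 11.8 FPKM in the EV libraries. Its miR-424 values were all slightly lower, with a log2 change of -0.11 ± 0.05 (SE; limma BH-adjusted p = 0.237). NOTCH3 passed without miR-424 replicate 3 (-0.14; limma BH-adjusted p = 0.00952) but not with the GC trend removed as well (-0.05), at 63.1% GC.

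The makeup of the receptor pool does not depend on scaling between libraries, but can depend on the GC trend. It differed from EV in the same direction in every miR-424 library. NOTCH1 gave 45.4%, 44.7% and 47.0% of the summed receptor FPKM in the miR-424 libraries, against 49.3%, 49.3% and 49.1% in the EV libraries. NOTCH2 gave 35.5%, 36.1% and 34.3%, against 32.0%, 32.5% and 32.7%. NOTCH3 gave 19.1%, 19.3% and 18.8%, against 18.7%, 18.3% and 18.2%. None of these shares overlapped between the groups (exact permutation test, two-sided, p = 0.1 for each, the smallest possible). The sum itself was 56.0, 53.5 and 60.9 FPKM in the miR-424 libraries, against 63.2, 63.4 and 64.5 FPKM in the EV libraries (difference -6.87 FPKM; exact permutation test, two-sided, p = 0.1). Under median-of-ratios scaling the difference was -4.35 FPKM (exact permutation test, two-sided, p = 0.4). The ligand sum came to between 29.4% and 30.7% of the receptor sum in the miR-424 libraries and between 32.2% and 33.4% in the EV libraries. NOTCH1 and NOTCH3 transcripts have 62.9% and 63.1% GC, and those of NOTCH2 49.4%. Loci of 60% GC and over had median deviations of -0.09, -0.12 and -0.05 in miR-424 replicates 1, 2 and 3. Those of loci of 45% to 50% GC were -0.007, -0.002 and -0.109. The part of the GC trend in the receptor shares was not tested.

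RBPJ, through which the receptors act on DNA, was the only tested gene of the 8 with a positive log2 change on the values as deposited. RBPJ (chromosome 4, 26321331 to 26436752) had 24.0, 24.6 and 20.0 FPKM in the miR-424 libraries, against 20.8, 20.8 and 20.6 FPKM in the EV libraries. Replicates 1 and 2 of miR-424 were above all EV values and replicate 3 was under them. The log2 change was 0.13 ± 0.08 (SE; limma BH-adjusted p = 0.373), and without miR-424 replicate 3 it was 0.22 and passed (0.000896, limma BH-adjusted p). With the GC trend removed as well it was 0.16 (limma BH-adjusted p = 0.00238), where 11.6% of all tested loci were called higher. RBPJ has the lowest transcript GC content of the 10 genes, 41.9%, and 2 seed matches.

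HES1, the repressor that serves as the standard readout of Notch activity, had 6.26, 6.34 and 4.27 FPKM in the miR-424 libraries, against 7.71, 7.09 and 6.88 FPKM in the EV libraries (chromosome 3, 193853930 to 193856401). All miR-424 values were lower, and replicate 3 was far lower than replicates 1 and 2. The log2 change was -0.33 ± 0.13 (SE; limma BH-adjusted p = 0.191), close in size to that of JAG1 but with a larger SE (0.130 and 0.042). Without miR-424 replicate 3 the change was smaller and passed (-0.17; limma BH-adjusted p = 0.0275), and with the GC trend removed as well it was -0.16 (0.0425). HEY1, the related repressor, had 1.11, 0.801 and 0.721 FPKM in the miR-424 libraries, against 0.998, 0.861 and 0.927 FPKM in the EV libraries. The HEY1 groups overlapped, and the gene was not tested at this level (log2 change -0.05; without the filter, limma BH-adjusted p = 0.829).

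**Figure D2:**
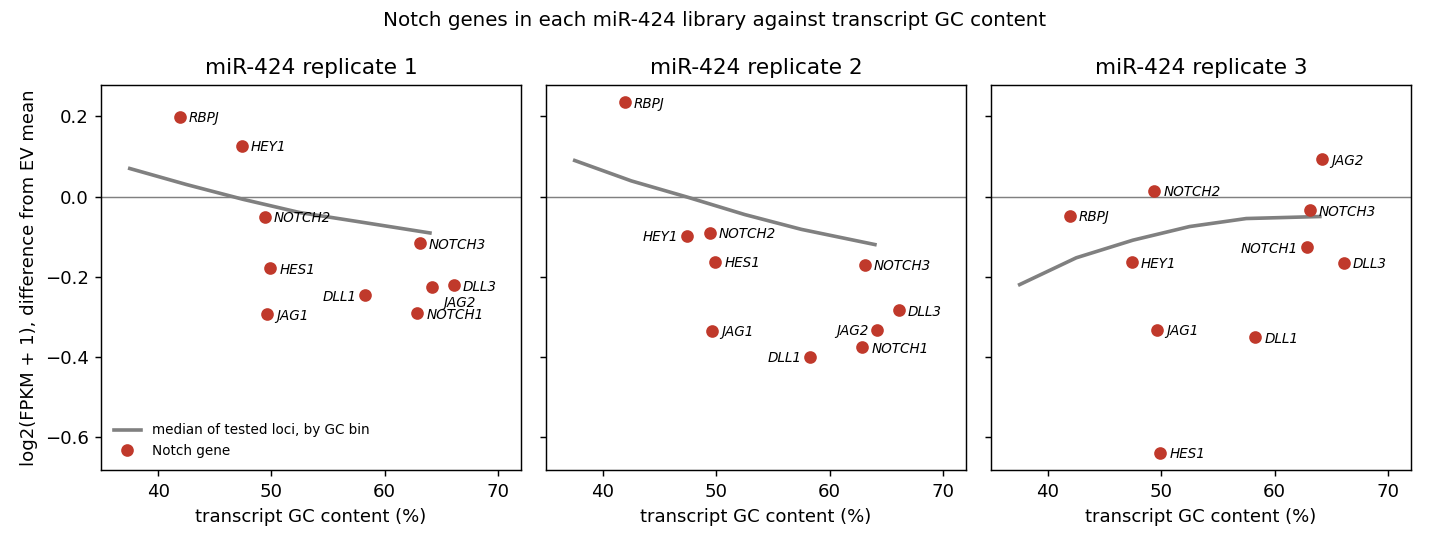
Difference of log2(FPKM + 1) from the EV mean (vertical axis) against transcript GC content in percent (horizontal axis) for the 10 Notch genes, one panel per miR-424 library, with the grey line giving the median of tested loci in bins of GC content. JAG1, DLL1, HES1 and NOTCH1 lie under the line in all 3 libraries. DLL3 and JAG2 lie to the right of the end of the line. DLL3 is lower than that end in all 3 libraries, while JAG2 is lower in replicates 1 and 2 and higher in replicate 3.

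The plot of deviations against GC content shows how far the genes stood from loci of like composition. JAG1 lay at -0.29, -0.34 and -0.33 in miR-424 replicates 1, 2 and 3, where loci of 45% to 50% GC had medians of -0.007, -0.002 and -0.109. HES1, also in that bin, lay at -0.18, -0.16 and -0.64. NOTCH1 lay at -0.29, -0.38 and -0.13 and DLL3 at -0.22, -0.28 and -0.17, where loci of 60% GC and over had medians of -0.09, -0.12 and -0.05. RBPJ lay at 0.199, 0.235 and -0.048, where loci of 40% to 45% GC had medians of 0.03, 0.04 and -0.15, so that RBPJ was above that median in every miR-424 library.

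**Figure D3:**
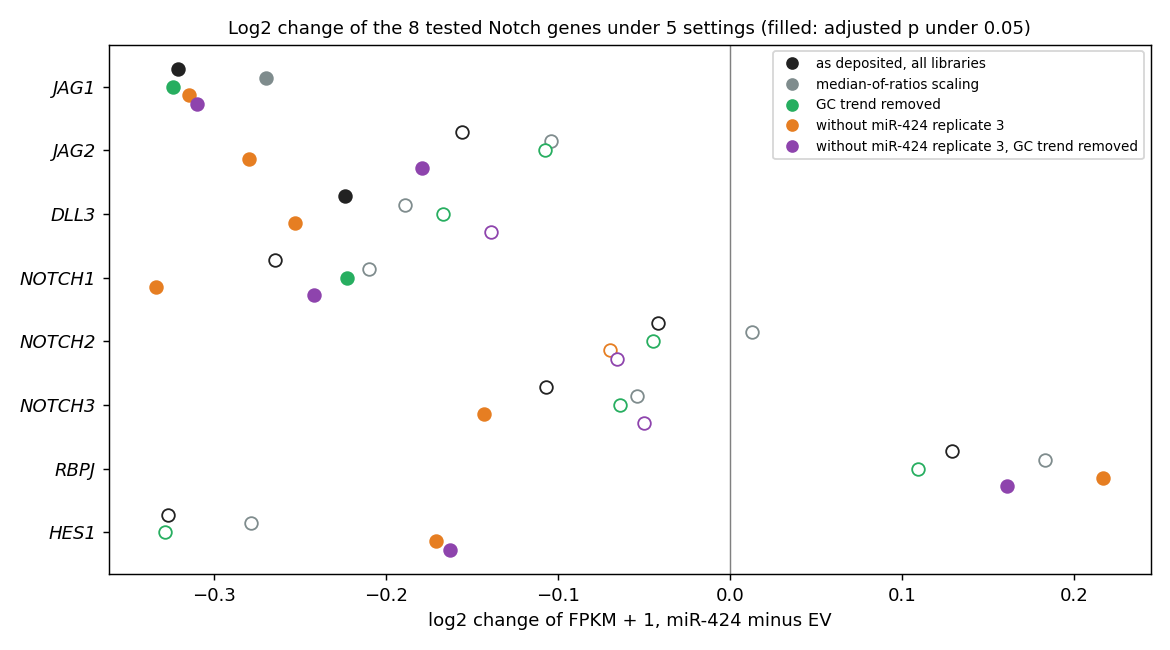
Log2 change of FPKM + 1, miR-424 minus EV (horizontal axis), of the 8 tested Notch genes under 5 settings, filled where the limma adjusted p was under 0.05. JAG1 is filled under all 5, DLL3 under 2 and NOTCH1 under 3, while RBPJ, HES1 and JAG2 are filled in the 2 settings without miR-424 replicate 3.

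Of the 8 genes, 1 was higher (RBPJ) and 6 were lower (JAG1, JAG2, DLL3, NOTCH1, NOTCH3 and HES1) without miR-424 replicate 3, where 14.9% of all tested loci were higher and 22.2% lower. With the GC trend removed as well, 1 was higher and 4 were lower (JAG1, JAG2, NOTCH1 and HES1), against 11.6% and 18.1% of all tested loci. With the GC trend removed from all 6 libraries JAG1 and NOTCH1 were lower and 0 were higher, against 7.98% and 2.05% of all tested loci. With median-of-ratios scaling JAG1 alone was lower and 0 were higher, against 4.28% and 2.66%.

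Beyond these genes, 83 further loci of the pathway were listed by role and 65 of them were tested. Of the 65, 8 fell (12.3%) and 0 rose in miR-424 cells, against 6.32% and 1.24% of all tested loci, and the median log2 change was -0.06 against -0.05. At an unadjusted p under 0.05, 16 of the 65 were lower and 2, APH1B and HDAC1, were higher, against the 19.3% and 4.29% of all tested loci given above. The 8 that fell were spread over 6 of the 8 roles. Among them DLK2 reached the tested mean only through the EV libraries.

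On the log2(FPKM + 1) scale the most negative change of the 65 was in NEURL1B, of the Neuralized family of ubiquitin ligases that drive endocytosis of Notch ligands. NEURL1B had 6.25, 5.97 and 5.73 FPKM in the miR-424 libraries, against 9.68, 9.77 and 9.63 FPKM in the EV libraries. Both groups were tight and far apart, with a ratio of 0.617 (that of DLK2, a gene near 1 FPKM, was 0.614) and a log2 change of -0.62 ± 0.04 (SE; limma BH-adjusted p = 0.0019), called in 16 of 16 alternative settings. The other 4 tested genes of ligand endocytosis, MIB1, MIB2, EPN1 and EPN2, did not pass, with log2 changes of -0.13, -0.01, -0.09 and -0.05.

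Of the 8 tested genes of the ADAM proteases and gamma-secretase, which cut the receptor once ligand is bound, 0 passed. APH1A, a gamma-secretase subunit and the highest of them, had 69.7 ± 2.05 FPKM in miR-424 cells and 75.1 ± 0.98 FPKM in EV cells (SD, n = 3 each; limma BH-adjusted p = 0.143). FURIN, the convertase that makes the first cut of the receptor in the Golgi, fell to 15.7 ± 0.36 FPKM in miR-424 cells, against 19.3 ± 0.40 FPKM in EV cells (log2 change -0.28 ± 0.04, SE; limma BH-adjusted p = 0.0108). It was the only one of 6 tested genes of receptor glycosylation and processing to pass, and its call ended without EV replicate 1, 2 or 3 (limma BH-adjusted p = 0.076, 0.0688 and 0.0805). In all it was called in 12 of 16 alternative settings.

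Modulators and non-canonical ligands gave 3 further falls. DTX2, a Deltex ubiquitin ligase that binds the intracellular part of Notch, fell to 17.8, 17.4 and 18.8 FPKM in the miR-424 libraries, against 22.4, 22.3 and 23.3 FPKM in the EV libraries (log2 change -0.32 ± 0.04, SE; limma BH-adjusted p = 0.0109). It was the only one of 10 tested genes of receptor turnover to pass, and not without EV replicate 1, 2 or 3 (limma BH-adjusted p = 0.0677, 0.0703 and 0.0787) nor under median-of-ratios scaling (0.0553). RITA1, listed as C12orf52, binds RBPJ and takes it out of the nucleus. It fell to 12.4, 11.8 and 11.8 FPKM in the miR-424 libraries, against 14.4, 13.8 and 14.2 FPKM in the EV libraries (log2 change -0.22 ± 0.04, SE; limma BH-adjusted p = 0.0293), as the only one of 14 tested corepressors, in 6 of 16 alternative settings. DLK2, a membrane protein related to the Delta ligands, had 0.776 ± 0.131 FPKM in miR-424 cells, against 1.27 ± 0.12 FPKM in EV cells (SD, n = 3 each). It passed (limma BH-adjusted p = 0.0312), in 8 of 15 alternative settings. Its miR-424 libraries were at 0.66 to 0.919 FPKM and its EV libraries at 1.14 to 1.37 FPKM. DLK2 thus reached the tested mean of 1 FPKM only through the EV libraries. For RITA1 and DLK2 the call ended when any of the 3 EV libraries or miR-424 replicate 1 or 2 was left out (limma BH-adjusted p of 0.0632 to 0.151 and 0.0872 to 0.14). Of 7 tested coactivators 0 passed. KAT2A, the highest of these, had 28.1 ± 1.67 FPKM in miR-424 cells and 28.9 ± 0.67 FPKM in EV cells (limma BH-adjusted p = 0.725).

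Of 13 tested genes that belong to the HES family or are reported to respond to Notch, 3 fell (23.1%), against 6.32% of all tested loci. CCND1, which encodes cyclin D1, fell to 66.0, 64.5 and 63.4 FPKM in the miR-424 libraries, against 80.6, 82.6 and 83.6 FPKM in the EV libraries (log2 change -0.34 ± 0.04, SE; limma BH-adjusted p = 0.00467). CDKN1A, which encodes the cell cycle inhibitor p21, fell to 282 ± 4.98 FPKM in miR-424 cells, against 322 ± 0.62 FPKM in EV cells (limma BH-adjusted p = 0.0194). HES2, a relative of HES1, had 1.03, 1.02 and 1.27 FPKM in the miR-424 libraries, against 1.47, 1.57 and 1.68 FPKM in the EV libraries (log2 change -0.29 ± 0.06, SE; limma BH-adjusted p = 0.0444). Cyclin D1 and p21 have many inputs other than Notch. The call of CCND1 ended without EV replicate 2 (limma BH-adjusted p = 0.051), and those of CDKN1A and HES2 when any of the 3 EV libraries or miR-424 replicate 1 or 2 was left out (0.0652 to 0.118 and 0.119 to 0.175). Median-of-ratios scaling also ended the calls of CDKN1A and HES2 (limma BH-adjusted p = 0.174 and 0.101), which held in 8 of 16 and 6 of 15 alternative settings. The remaining 10 of this group had log2 changes that did not pass.

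**Figure D4:**
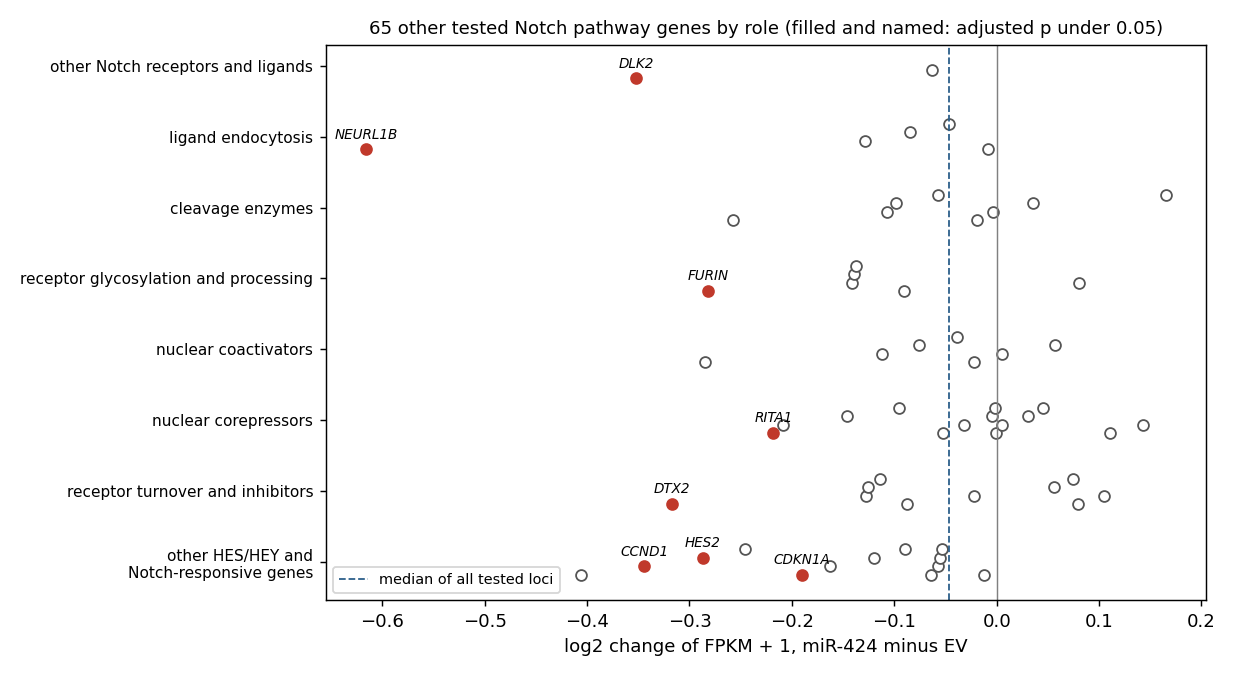
Log2 change of FPKM + 1, miR-424 minus EV (horizontal axis), of the 65 other tested Notch pathway genes, one row per role, with each point a gene. Filled and named points had a limma adjusted p under 0.05, all 8 of them on the side of lower values in miR-424 cells, and the dashed line is the median of all tested loci.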

How the data were processed

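RNA sequencing of MCF12A cells was analysed from 1 table of FPKM values that the authors deposited, with 1 column per sample, matched by title. Per the submitters' processing notes, which give no order, the tools were TopHat 1.4.1, Cufflinks 1.3.0 and Cuffdiff, with the genome named as both GRCh37 and hg19. The sources used here do not give the annotation, strand setting, depth or scaling, and counting error is therefore unknown.

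A gene was taken from the row whose symbol contained it (the highest mean where repeated). On the log2(FPKM + 1) scale, the 11574 loci whose mean reached 1 FPKM were tested with limma 3.58.1 in R 4.3.3 (trended prior variance, two-sided, no covariate, Benjamini-Hochberg adjustment, threshold 0.05). The fit was tested on simulated data with independent noise, which held no GC trend and no library that stood apart. Ratios are of mean FPKM. Positions are as in the table (hg19). Promoters and the microRNA came from RefSeq (GRCh38.p14), and UTRs and GC content from GENCODE 29, matched by transcript or symbol (GC content for 98.6% of tested loci).

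The 10 genes and the wider lists were chosen with earlier results of these data known. Named were all 10 genes and, for each role of the wider list, up to 4 past the threshold, or else the highest in mean. APH1B and HDAC1, the other genes of ligand endocytosis and the cell markers printed were named after their values were seen or to complete a count. Alternatives were another pseudocount, 2 filters, 2 scalings, no variance trend, GC trend removal, a replicate block and leaving out each library. Leaving out miR-424 replicate 3 with the GC trend removed was chosen after seeing the data.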

Additional observations from a re-analysis of the deposited data

How the results depend on the processing

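The log2 change of JAG1 was negative in 16 of 16 alternatives and past the threshold in 13, and NOTCH2 turned positive under median-of-ratios scaling (0.013) and quantile normalization (0.003), without passing. The log2 change of KAT2A turned positive under those scalings (0.017 and 0.011), ranged from -0.07 to 0.009 without 1 library, and was 0.081 and passed (limma BH-adjusted p = 0.0396) without miR-424 replicate 3 and with the GC trend removed. Falls among the 8 Notch genes numbered 2 in the fit reported and 1 with median-of-ratios scaling, quantile normalization or the replicate block. With a minimum of 5 FPKM, 7 genes were tested, without DLL3, and 1 fell. Leaving out 1 library gave 0 to 6 falls and 0 to 1 rises. Without miR-424 replicate 3 and with the GC trend removed there were 4 falls and 1 rise. Of the other pathway genes 8 fell; 4 fell and 1 rose under median-of-ratios scaling, 1 rose under quantile normalization, 5 fell with the replicate block, and leaving out 1 library gave 1 to 16 falls and 0 to 8 rises (16 and 7 without miR-424 replicate 3 and with the GC trend removed). Over all tested loci the 144 rises and 731 falls became 308 and 495 under median-of-ratios scaling, 319 and 447 under quantile normalization, 237 rises with the GC trend removed, 468 falls at a minimum of 5 FPKM, 79 and 270 with the replicate block, 31 to 1728 and 77 to 2574 without 1 library, and 1344 and 2099 without miR-424 replicate 3 and with the GC trend removed. The summed receptor and ligand differences (-6.87 and -3.80 FPKM) ranged from -8.91 to -5.23 and from -4.59 to -3.13 without 1 library, and were -4.35 and -2.99 under median-of-ratios scaling. The cause of these differences was not tested.

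Whether same-numbered samples were paired could not be settled. Deviations from the group means correlated by 0.051, 0.152 and 0.127 between the groups for replicates 1, 2 and 3. Replicates 1, 2 and 3 of miR-424 and replicates 2 and 3 of EV correlated best with their own number, and EV replicate 1 did not. With the replicate block DLL3 did not pass (limma BH-adjusted p = 0.108) and JAG1 did. Depth is unknown, so values under 1 FPKM, DLL1 and HEY1 among them, carry an unknown counting error.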
